A study of Mus musculus with 3 samples.

Results

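CD8 T lymphocytes were isolated in silico from droplet single-cell RNA sequencing (scRNA-seq) of mouse kidney, in which each transcript molecule is counted once by its unique molecular identifier (UMI). Kidneys came from 2 Aoah-/- mice (replicates 2 and 3) and 1 wild-type (WT) mouse (replicate 3), 1 library per mouse, all given folic acid (FA) and sampled at 14 days, with a labelled age of 6 to 8 weeks. FA injures the tubules and is followed by renal fibrosis. Aoah encodes acyloxyacyl hydrolase, a lipase that removes fatty acyl chains from bacterial lipopolysaccharide, and the mutation is carried by every cell of the mouse, on a C57BL/6J background, with littermates as WT controls. No kidney without FA was analysed here, so that all values describe the injured organ. Of 73281 barcodes, 48404 were kept and 2367 of them (4.89%) were CD8 T lymphocytes. There were 920 in the Aoah-/- mouse numbered 2, 1067 in the one numbered 3 and 380 in the WT mouse, hereafter Aoah-/- 2, Aoah-/- 3 and WT, and unnamed series of 3 values keep this order.

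CD8 T lymphocytes recognise peptides on MHC class I molecules and kill the presenting cell through perforin and granzymes, or signal to other cells through interferon gamma and chemokines. Naive cells recirculate between blood and lymph nodes with the help of CCR7. After activation, effector cells switch on the cytotoxic genes, and part of the memory cells settle in organs such as the kidney, where integrins, CD69 and CXCR6 mark residence.

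The members were chosen by their own UMI counts, through a gate. A cell needed 1672 UMIs or more, which was the lowest total of any barcode in the library of Aoah-/- 3 (500 in each of the other libraries), 200 genes or more, and no more than 50% of its UMIs from mitochondrial genes. It also needed a UMI of Cd3d, Cd3e or Cd3g, subunits of the CD3 complex, and of Cd8a or Cd8b1, the chains of the CD8 coreceptor, with none of Cd4 or Foxp3. At most 2 UMIs were allowed for the sum of Cd79a, C1qa and Lyz2, genes of B cells and phagocytes, and at most 2 for the sum of Lrp2, Slc34a1 and Slc12a1, genes of the tubule. The levels of these 13 genes are therefore given as a description. Both Cd8a and Cd8b1 were detected in 61.7% of the gated cells of Aoah-/- 2, 64.9% of those of Aoah-/- 3 and 69.7% of those of WT, Cd8a alone in 18.2%, 19.9% and 16.3%, and Cd8b1 alone in 20.1%, 15.3% and 13.9%. Cd3d was detected in 90.9%, 91.8% and 93.7% of the cells, and Cd3g in 91.6%, 95.4% and 93.7%. Just inside the gate were 167, 168 and 50 cells with 1 UMI of Cd8a and Cd8b1 together, and just outside it were 11, 13 and 3 cells with both a CD8 and a Cd4 UMI. At the tubular limit, 132, 165 and 46 cells held 2 UMIs of the 3 tubular genes and were inside, and 44, 65 and 10 cells held 3 and were outside. At the limit for B cell and phagocyte genes, 38, 26 and 1 cells with 2 UMIs were inside, and 8, 5 and 4 cells with 3 were outside.

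The libraries held 167222984, 161015021 and 158551992 UMIs, of which the gated CD8 cells held 2939216, 3780493 and 1403824, with a median of 2641.5, 3052 and 3244.5 UMIs per cell. Between 171 and 176 barcodes were shared by any pair of libraries, and none of the shared barcodes was a CD8 cell in both. Apart from the numbers in the labels, nothing states that the libraries came from separate preparations. Aoah, on chr13:20794113-21036617 of GRCm38, was read at 6.06 counts per 1000000 UMIs (CPM) over all barcodes of Aoah-/- 2 and 5.68 CPM in Aoah-/- 3, against 15.3 CPM in WT, and the 95% Poisson intervals of both Aoah-/- libraries ended below that of the WT library. The counts do not show where in the gene the reads lie, so this is a check of order and not of absence. Within the CD8 cells there were 3, 0 and 0 UMIs of Aoah, so that the gene was not detectable at this depth in CD8 cells of WT, where a count of 0 allows up to 2.63 CPM (exact upper limit).

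CD8 cells were more frequent in both Aoah-/- libraries than in the WT library. They made up 5.96% of the kept cells of Aoah-/- 2 (95% Clopper-Pearson interval 5.59 to 6.34), 5.42% of those of Aoah-/- 3 (5.11 to 5.74) and 2.86% of those of WT (2.59 to 3.16). The Aoah-/- mean exceeded the WT value by 2.82 percentage points, against an SD of 0.382 between the Aoah-/- libraries. T cells were counted as cells with a Cd3 UMI within the same limits for B cell, phagocyte and tubular genes. They numbered 1560, 2047 and 1070, and CD8 cells accounted for 59.0% (56.5 to 61.4), 52.1% (49.9 to 54.3) and 35.5% (32.6 to 38.5). There were 4.97, 4.17 and 2.15 CD8 cells for each conventional CD4 T cell, the latter gated on Cd3 and Cd4 without Cd8a, Cd8b1 or Foxp3. The CD4 cells themselves were 1.20%, 1.30% and 1.33% of the kept cells. CD8 cells per natural killer (NK) cell, gated on Ncr1 or Klrb1c without Cd3, numbered 8.00, 8.60 and 2.71. Per B cell they numbered 1.30, 3.14 and 1.03, so that in this ratio Aoah-/- 2 lay near WT. T cells without a UMI of Cd8a, Cd8b1, Cd4 or Foxp3 were 25.06%, 29.995% and 41.40% of the T cells counted in this way. The share of such cells in which a coreceptor was present and not captured was not tested.

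**Figure D1:**
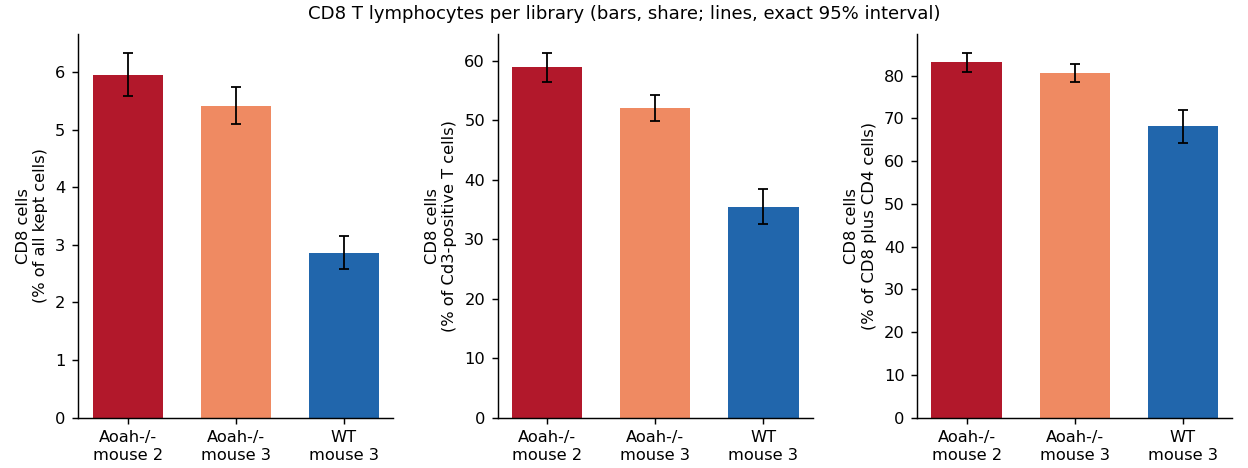
CD8 T lymphocytes of each library as a percentage of all kept cells (left), of Cd3-positive T cells within the other-lineage limits (middle) and of CD8 plus CD4 cells (right). Bars are the shares and lines the exact 95% binomial intervals. Both Aoah-/- libraries lie above the WT library in each panel, for example 59.0% and 52.1% against 35.5% of T cells.

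With 2 libraries against 1, the smallest exact permutation p is 0.333, so these shares carry no test, and the intervals cover counting error only. A share of kept cells also moves with every other cell type. With a UMI floor of 3000, chosen after the data were seen, the shares of kept cells were 2.99%, 4.63% and 2.15%, and with no UMI of the other lineages allowed they were 2.33%, 2.18% and 1.46%. The order of WT below both Aoah-/- libraries was the same in each of these settings.

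The leading genes of the gate were those of T and cytotoxic lymphocytes. Genes were ranked by the mean log2 ratio to all other kept cells, with 10 CPM added to both levels. On this scale the largest ratios outside the gate genes themselves belonged to Ccl5, Nkg7, Ms4a4b, Xcl1, Thy1 and Ctsw. The order depends on that addition. Gzmk, at 237, 223 and 165 CPM against 2.72, 4.05 and 0.910 CPM, had larger plain ratios than Ccl5. Ccl5, a chemokine stored in effector and memory T cells, stood at 12041, 9992 and 9413 CPM in the CD8 cells of Aoah-/- 2, Aoah-/- 3 and WT, and at 218, 273 and 147 CPM in all other kept cells. Ms4a4b, a T cell membrane protein, stood at 1117, 1209 and 1172 CPM against 28.1, 39.5 and 25.0 CPM. In UMIs, which are not scaled by gene length, Ccl5 was the first gene of the CD8 cells outside the ribosomal, mitochondrial and other classes left out of the ranking, and Nkg7 was among the first 15. Markers that define NK cells were low: the NK list (Ncr1, Klra4, Klra7, Klra8 and Klra9) summed to 21.8, 49.5 and 34.2 CPM in CD8 cells and to 1919, 1789 and 2192 CPM in NK cells, with Klra9 as its most abundant member in CD8 cells. Ncr1 was used for the NK gate, so its part of the NK sums follows from the gating. Klra4, which was not a gate gene, stood at 0.340, 1.85 and 0 CPM in CD8 cells and at 528, 415 and 626 CPM in NK cells.

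Nearly every CD8 cell carried an effector gene, and cells with naive genes alone were rare. For this comparison each cell was thinned to 1672 UMIs, the lowest total in the gate, so that no cell was left out. After thinning, a UMI of Ccl5, Nkg7, Gzma, Gzmb or Gzmk was found in 96.2% of the CD8 cells of Aoah-/- 2 (94.7 to 97.3), 96.4% of those of Aoah-/- 3 (95.1 to 97.5) and 95.8% of those of WT (93.3 to 97.6). Without thinning the shares were 97.6%, 98.2% and 97.9%. In B cells, which should lack these genes, the thinned shares were 4.26%, 5% and 1.90%, and in ascending limb cells 4.11%, 16.1% and 1.62%, from median depths of 3399, 2441 and 2397 UMIs (B cells) and 10131, 4206.5 and 8208 UMIs (ascending limb) before thinning. The background was thus highest in Aoah-/- 3 and far below the CD8 shares in each library. CD4 cells showed such a UMI in 49.7%, 53.5% and 57.6% and NK cells in 96.5%, 96.0% and 96.4%.

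A UMI of a naive gene (Ccr7 or Lef1) was found in 14.2%, 12.5% and 13.7% of the thinned CD8 cells, and in 21.8%, 18.7% and 21.3% without thinning. Most of these cells also carried an effector gene, leaving 17 of 920, 18 of 1067 and 7 of 380 cells with a naive gene alone. This was 1.85% (1.08 to 2.94), 1.69% (1.00 to 2.65) and 1.84% (0.744 to 3.76). Effector genes alone were found in 83.8% (81.3 to 86.1), 85.7% (83.4 to 87.7) and 83.9% (79.9 to 87.5), both sets in 12.4%, 10.8% and 11.8%, and neither in 18, 20 and 9 cells. The intervals of the 3 libraries overlapped for each of these classes. Over 20 further random thinnings the naive class of WT took 2.11% to 3.95%, all above its value here, and the difference between the Aoah-/- mean and WT ran from -1.75 to 0.635 percentage points, so no direction was detectable at this depth. In CD4 cells the naive gene alone was found in 15.7%, 10.5% and 12.99%. These classes are ranges of detection and not cell types.

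**Figure D2:**
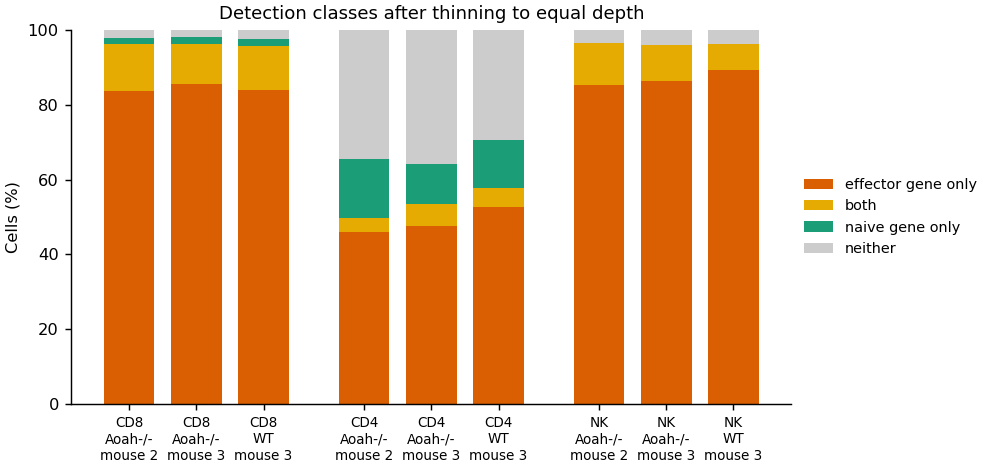
Percentage of cells in 4 detection classes after thinning each cell to the same UMI total, for the CD8, CD4 and NK gates of each library. In the CD8 bars the effector class takes 83.8%, 85.7% and 83.9% and the naive class (Ccr7 or Lef1 alone) 1.85%, 1.69% and 1.84%; in the CD4 bars the naive class takes 10.5% to 15.7%.

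The few cells with a naive gene alone were set beside the effector class for genes that had not been used to sort them, as thinned CPM and without a test. Of the 12 other genes of the naive list, 9, 12 and 11 stood higher in the naive class of Aoah-/- 2, Aoah-/- 3 and WT, and 8 did so in all 3 libraries. S1pr1, Igfbp4 and Txk were lower in Aoah-/- 2 and Actn1 was lower in WT. No such count was made over all genes, so these counts are a description of the list. Il7r, the interleukin 7 receptor that sustains naive and memory T cells, stood at 598, 565 and 854 CPM in the naive class against 137, 141 and 152 CPM in the effector class, and at 432, 778 and 997 CPM in cells with neither set. Satb1, a chromatin organiser of T cells, stood at 739, 598 and 256 against 60.5, 54.3 and 48.7 CPM, and Dapl1 at 141, 432 and 427 against 8.53, 9.82 and 18.7 CPM. Klrk1, which encodes the activating receptor NKG2D, had no UMI in the naive class of any library and stood at 368, 274 and 210 CPM in the effector class. Cxcr6 stood at 35.2, 33.2 and 0 CPM against 282, 353 and 302 CPM. The naive class rests on 17, 18 and 7 cells, in which 1 UMI was worth 35.2, 33.2 and 85.4 CPM.

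The effector programme was led by Ccl5 and Nkg7, with granzymes detected in part of the cells. Ccl5 was detected in 92.5%, 93.1% and 91.1% of the thinned CD8 cells, and Nkg7, a granule membrane protein needed for cytotoxic degranulation, in 89.9%, 88.9% and 88.4%. Without thinning these were 93.8%, 94.7% and 92.9% for Ccl5 and 96.1%, 96.1% and 96.3% for Nkg7. Gzmk, a granzyme of memory-type cells, was detected in 35.1% (32.0 to 38.3) and 32.1% (29.3 to 35.0) of the cells of the Aoah-/- mice and in 21.6% (17.5 to 26.1) of those of WT, and in at most 0.693% of B or ascending limb cells of any library. Gzma was detected in 17.7%, 20.2% and 13.2%. For Gzmb, the granzyme that activates caspases in target cells, the shares were 15.1%, 23.2% and 18.4%. Gzmb and Gzmk were found together in 6.20%, 8.15% and 5% of the cells. The Gzmk interval of WT lay below both Aoah-/- intervals, whereas for Gzmb WT lay between the Aoah-/- mice. Prf1, perforin, was detected in 6.30%, 5.81% and 2.63%. Without thinning, Gzmk was detected in 47.8%, 45.5% and 34.2%, Gzma in 20%, 24.5% and 15%, and Gzmb in 19.8%, 30.8% and 23.2%. The granzyme shares thus depend on depth, and a cell without a UMI may still express the gene.

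Residence genes were detected in a large part of the CD8 cells, with a wide spread between the Aoah-/- mice. A UMI of Itgae, Itga1 or Cxcr6 was found in 35.1% (32.0 to 38.3) of the thinned cells of Aoah-/- 2, 45.6% (42.6 to 48.7) of Aoah-/- 3 and 39.5% (34.5 to 44.6) of WT, or 45.4%, 60.5% and 56.3% without thinning. In CD4 cells the thinned shares were 15.7% (10.8 to 21.7), 33.6% (27.8 to 39.7) and 37.3% (30.1 to 44.9), so that the intervals of the CD8 and CD4 cells overlapped in WT and lay apart in both Aoah-/- mice. In NK cells the thinned shares were 8.70%, 5.65% and 5.71%, in B cells 0.142%, 1.18% and 0, and in ascending limb cells 5.63%, 6.42% and 7.96%. Cxcr6, a chemokine receptor of tissue T cells, accounted for most of it, at 29.9%, 36.9% and 29.7%. Itgae, the integrin chain CD103 that binds E-cadherin on epithelium, was found in 3.80% (2.66 to 5.25), 10.2% (8.46 to 12.2) and 11.3% (8.31 to 14.9), so that Aoah-/- 2 alone was low. Itga1, the collagen-binding integrin chain CD49a, was found in 5.11%, 9.47% and 6.84%, but ascending limb cells also showed it in 4.90%, 5.29% and 5.90%, whereas B cells did in 0.142%, 0.882% and 0. Zfp683, which encodes the residence factor Hobit, was at 0.680, 5.29 and 2.85 CPM.

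**Figure D3:**
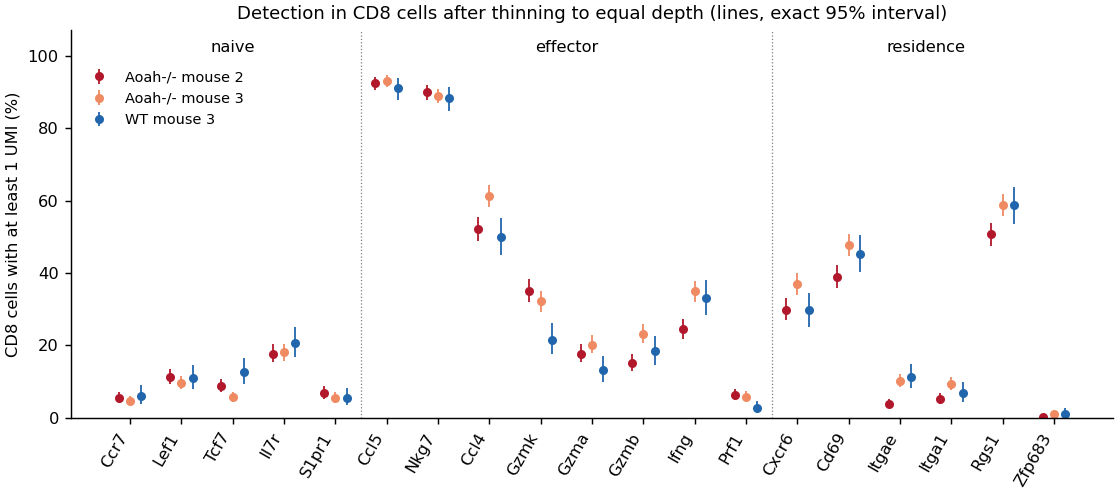
Percentage of CD8 cells with at least 1 UMI of each naive, effector and residence gene after thinning to equal depth, by library; points are shares and lines exact 95% binomial intervals. Ccl5 and Nkg7 lie near 90% in each library, Gzmk is higher in both Aoah-/- mice (35.1% and 32.1%) than in WT (21.6%), and Itgae is low in Aoah-/- 2 (3.80%).

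Within each library, cells with a residence gene also differed from those without in genes outside that set. Rgs1, a brake on chemokine receptor signalling that is high in tissue T cells, stood at 911, 1147 and 1408 CPM in cells with a residence gene against 585, 657 and 749 CPM in the others. Klf2, the factor that drives exit from tissue, stood at 254, 181 and 263 against 440, 436 and 621 CPM, and S1pr1, the exit receptor itself, at 22.2, 17.2 and 27.9 against 58.1, 53.6 and 49.4 CPM. Cx3cr1, a receptor of circulating effector cells, stood at 9.26, 3.68 and 15.9 against 56.1, 39.2 and 41.6 CPM. The direction of each of these 4 genes was shared by the 3 libraries. Of the 10 granule genes, 4 were higher (Gzmb, Nkg7, Ctsw and Srgn) and 1 lower (Gzmm) in cells with a residence gene in all 3 libraries, and 5 were mixed. The share of all genes with the same direction in all 3 libraries was not counted here. Gzmb stood at 191, 478 and 439 against 177, 264 and 166 CPM, with the levels of Aoah-/- 2 close together. Gzma stood at 498, 795 and 821 against 921, 1023 and 473 CPM, lower in both Aoah-/- mice and higher in WT.

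To see what set CD8 cells apart from helper T cells of the same kidneys, UMIs were summed per library and gate and compared with the library as a block. Of 8102 genes tested, 205 (2.53%) were higher and 264 (3.26%) lower in CD8 than in CD4 cells at an adjusted p of 0.05 (edgeR quasi-likelihood test, Benjamini-Hochberg). The cytotoxic granule list held 9 higher genes of 10 tested and none lower, with a median log2 difference of 2.65 against -0.000858 over all genes tested. Only Srgn, a granule proteoglycan made by most leukocytes, was not called. The NK-type receptors held 6 higher genes of 8 (median 3.52), and the effector transcription factors and receptors 4 of 7 (median 1.12). The cytokine and chemokine list held 4 higher genes and 1 lower of 8 (median 0.85).

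Among the granule genes, Gzmb stood at 192, 372 and 281 CPM in the CD8 cells and at 13.6, 10.5 and 3.01 CPM in the CD4 cells of Aoah-/- 2, Aoah-/- 3 and WT, a log2 difference of 4.98 (SE 0.271, edgeR adjusted p = 3.05e-05). Gzma stood at 732, 867 and 648 against 29.9, 24.1 and 78.3 CPM (4.23, SE 0.309, edgeR adjusted p = 0.000128), and Gzmk at 237, 223 and 165 against 20.4, 34.6 and 30.1 CPM (2.92, SE 0.178, edgeR adjusted p = 5.65e-05). For all 3 granzymes the gates did not overlap in any library. Granzyme genes resemble each other in sequence, and how reads shared between them were assigned was not tested. Nkg7 stood at 2070, 2007 and 2005 against 270, 391 and 611 CPM (2.38, SE 0.184). Prf1, at 33.7, 30.4 and 19.2 CPM, had 3 UMIs in all CD4 cells together, a ratio of 23.3 (counting interval 7.88 to 114).

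Of the chemokines, Ccl5 was higher by 3.32 on the log2 scale (SE 0.0914, edgeR adjusted p = 9.81e-07) and Ccl4 by 4.04 (SE 0.311), with 1121, 1693 and 1281 CPM against 24.4, 183 and 81.3 CPM. Ccl3, which is closely related to Ccl4, was higher by 4.08, and Xcl1, the ligand that draws cross-presenting dendritic cells, by 1.57. Lta was lower. Ifng did not pass, at 308, 371 and 380 CPM in CD8 cells and 189, 401 and 461 CPM in CD4 cells. In WT and Aoah-/- 3 the CD4 level of Ifng was the higher one.

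Klre1, a lectin-like receptor encoded in the NK gene complex on chr6:129577905-129585827, was the most divided gene by log2 difference among the called genes with at least 100 CPM. It stood at 180, 170 and 58.4 CPM in CD8 cells and had 3 UMIs in all CD4 cells together, a ratio of 121 (counting interval 41.3 to 588). Klrd1, which encodes CD94, stood at 284, 258 and 191 against 16.3, 22.0 and 19.6 CPM (3.70, SE 0.156, edgeR adjusted p = 7.07e-06). Klrc1 and Klrc2, the inhibitory and activating partners of CD94, were higher by 4.74 and 4.62, though the 2 genes share sequence and their reads could be exchanged. Klrk1 was higher by 3.34. Of the transcription factors, Eomes (3.78), Zeb2 (1.44), Runx3 (1.12) and Tbx21 (0.90) were higher, all of them known drivers of the cytotoxic fate. Eomes lost its call with DESeq2 (adjusted p = 0.112), and Tbx21 lost it with DESeq2 and without Aoah-/- 3.

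The start sites of the cytotoxic genes that were higher in CD8 than in CD4 cells are shown for Klre1, which had the largest difference, Nkg7, Gzmb and Gzma. Each run is the 250 bases before a RefSeq start site (GRCm38.p6), read 5' to 3' on the strand of the gene, from chr6:129577963-129578212 (plus strand, Klre1), chr7:43436888-43437137 (plus, Nkg7), chr14:56262335-56262584 (minus, Gzmb) and chr13:113100982-113101231 (minus, Gzma). Klre1 has another RefSeq start site, whose window (chr6:129578036-129578285) overlaps the one shown and holds neither motif. Capitals mark the letters TGTGGT, a core that RUNX factors bind, or AGGTGTG, a core that T-box factors bind, on either strand (ACCACA and CACACCT).
Klre1: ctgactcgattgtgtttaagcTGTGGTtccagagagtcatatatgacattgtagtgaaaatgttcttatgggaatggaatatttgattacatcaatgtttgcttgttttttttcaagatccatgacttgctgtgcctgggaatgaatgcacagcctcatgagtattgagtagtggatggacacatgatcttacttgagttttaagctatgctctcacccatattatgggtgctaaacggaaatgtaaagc
Nkg7: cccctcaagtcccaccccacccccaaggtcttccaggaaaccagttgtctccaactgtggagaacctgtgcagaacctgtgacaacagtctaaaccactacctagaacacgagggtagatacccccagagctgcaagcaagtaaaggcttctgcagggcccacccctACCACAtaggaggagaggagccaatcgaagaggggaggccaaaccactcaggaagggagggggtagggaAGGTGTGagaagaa
Gzmb: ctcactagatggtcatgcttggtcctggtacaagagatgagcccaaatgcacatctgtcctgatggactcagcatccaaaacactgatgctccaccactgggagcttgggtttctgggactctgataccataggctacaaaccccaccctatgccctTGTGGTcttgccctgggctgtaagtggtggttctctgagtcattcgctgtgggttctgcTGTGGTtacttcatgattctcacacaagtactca
Gzma: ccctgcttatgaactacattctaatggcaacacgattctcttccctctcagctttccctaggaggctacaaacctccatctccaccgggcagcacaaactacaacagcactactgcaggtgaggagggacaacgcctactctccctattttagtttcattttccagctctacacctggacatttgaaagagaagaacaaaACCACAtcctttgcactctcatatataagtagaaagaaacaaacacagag
Of 19 granule, chemokine and NK-type receptor genes that were higher in CD8 cells, 15 matched the promoter table. TGTGGT or its complement was found in the windows of 12 of these 15 genes (13 of 18 windows) and in 14.0% of all 32851 windows of the same length. AGGTGTG was found in 1 of the 15, Nkg7, and in 5.10% of all windows. The motifs share the letters TGTG, related genes such as Klrc1 and Klrc2 share promoter sequence, and a match describes these letters only.

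**Figure D4:**
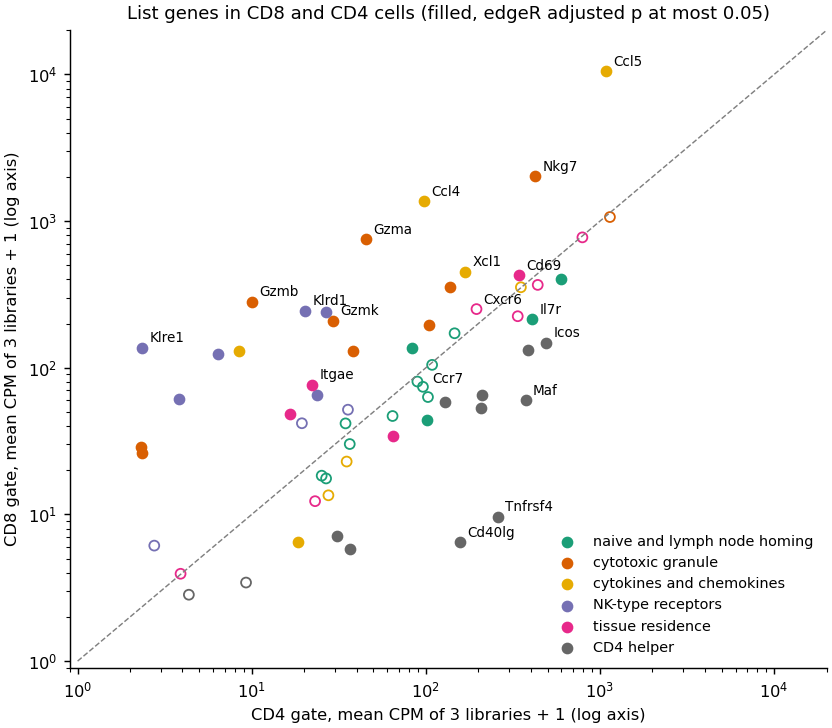
Mean CPM over the 3 libraries, with 1 added, of 6 gene lists in CD4 cells (horizontal, log axis) and CD8 cells (vertical, log axis); filled points passed the edgeR test at an adjusted p of 0.05 and open points did not or were not tested. NK-type receptors and the granule genes other than Srgn lie above the dashed line of equality and CD4 helper genes below it, and of the called naive genes 1 lies above and 3 below.

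Naive genes were mostly not called. Of 14 tested, 1 was higher (Txk, a kinase of the T cell receptor pathway) and 3 were lower (Il7r, S1pr1 and Klf2), and 10 were not called, with a median log2 difference of -0.36 against -0.000858 over all genes tested and a negative difference for 10 of the 14. Il7r stood at 201, 202 and 236 CPM in CD8 cells and at 411, 388 and 423 CPM in CD4 cells (-0.88, SE 0.0848, edgeR adjusted p = 0.000496). Ccr7, at 74.5, 58.7 and 86.2 against 88.3, 85.9 and 111 CPM, and Tcf7, at 65.0, 43.1 and 78.4 against 117, 106 and 82.8 CPM, were not called. The call of Klf2 was lost without the block (adjusted p = 0.130) and without Aoah-/- 3 (0.128).

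Of 9 residence genes, 3 were higher (Itgae, Itga1 and Cd69) and 1 lower (P2rx7), with a median of 0.04. Itgae stood at 26.5, 95.2 and 105 CPM in CD8 cells and at 20.4, 34.6 and 9.03 CPM in CD4 cells (1.74, SE 0.391, edgeR adjusted p = 0.0363). In Aoah-/- 2 the Itgae levels of both gates were close, and the call was lost without Aoah-/- 3 (adjusted p = 0.201), without the block (0.101) and with DESeq2 (0.477). Cd69, an early activation marker that also retains cells in tissue, stood at 358, 462 and 455 against 282, 366 and 381 CPM, a log2 difference of 0.37 that lost its call without any single library (adjusted p from 0.0711 to 0.227) and without the block (0.174). The call of Itga1 was lost without Aoah-/- 3 (adjusted p = 0.0811). Cxcr6, at 209, 298 and 244 against 110, 220 and 253 CPM, and Rgs1, at 620, 795 and 905 against 568, 876 and 930 CPM, were not called.

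Memory and activation genes were divided, with 3 higher (Il2rb, Ly6c2 and Ccr2) and 4 lower (Cd44, Cxcr3, Ly6a and Itgb1) of 8. Ly6c2, a surface protein of memory CD8 cells with a near-identical neighbour, Ly6c1, stood at 731, 756 and 643 against 129, 161 and 113 CPM (2.46, SE 0.0961, edgeR adjusted p = 6.32e-06). Inhibitory receptors were divided too, with Cd160 and Cd244 higher and Ctla4 and Btla lower of 8. Cd160 stood at 108, 144 and 167 against 5.43, 11.5 and 12.0 CPM (3.89, SE 0.178, edgeR adjusted p = 1.21e-05). Pdcd1, the receptor PD-1, stood at 126, 87.8 and 130 against 88.3, 79.6 and 75.3 CPM and was not called, and Lag3, Havcr2 and Tigit stood below 14 CPM in CD8 cells of every library.

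All 10 CD4 helper genes tested were lower in CD8 cells (median -2.10), among them Cd40lg, the helper signal to B cells, at 3.06, 2.65 and 10.7 against 119, 154 and 196 CPM, and Icos, a costimulatory receptor, at 115, 123 and 203 against 492, 461 and 513 CPM. Early response and heat shock genes held 7 lower of 15 (Fos, Junb, Jund, Dusp1, Egr1, Zfp36 and Nr4a1) and none higher. Junb stood at 2164, 2641 and 2799 against 3513, 4560 and 4793 CPM (-0.70, SE 0.0509, edgeR adjusted p = 0.000128). The call of Fos was lost without any single library (adjusted p from 0.0687 to 0.173) and without the block (0.297). With no UMI of other lineages its difference of -0.36 became -0.18 and was not called (edgeR adjusted p = 0.625). T cell receptor signalling genes held 3 higher and 3 lower of 14, and interferon-induced genes 2 lower of 13 (Isg15 and Ifi27l2a). Isg15 was not called without either Aoah-/- mouse, without the block, with no UMI of other lineages or with DESeq2. MHC class I genes held 1 higher of 8 (H2-Q7, which resembles other class I genes), and proliferation genes none of 10. Of the markers of other kidney cells, Ctss of the macrophage list and Pecam1 of the endothelial list were lower and Klra9 of the NK list was higher, and no gene of the proximal tubule, ascending limb, MHC class II, B cell, granulocyte or erythroid lists was called. The fibroblast genes were too low to be tested.

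Against NK cells, with the same test and block, 502 of 7472 genes (6.72%) were higher and 477 (6.38%) lower in CD8 cells. NK-type receptors held 7 lower and no higher gene of 8 (median -1.85). Klrc1, at 140, 148 and 79.1 CPM in CD8 cells against 209, 133 and 218 CPM in NK cells, was not called (edgeR adjusted p = 0.186). Klre1 stood at 180, 170 and 58.4 CPM in CD8 cells and at 607, 640 and 679 CPM in NK cells (-2.27, SE 0.270, edgeR adjusted p = 0.000263). The granule list was divided, with Gzmk, Gzmm and Srgn higher and Gzma, Gzmb, Prf1 and Nkg7 lower of 10. Gzma was at 8209, 8397 and 8526 CPM in NK cells, whereas Gzmk was at 4.98, 10.1 and 8.21 CPM there against 237, 223 and 165 CPM in CD8 cells (4.74, SE 0.240, edgeR adjusted p = 8.43e-07). Ifng and Tnf were higher and Ccl3 and Ccl5 lower of 6 cytokine genes.

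Residence genes held 6 higher (Itgae, Itga1, Cd69, Cxcr6, Rgs1 and P2rx7) and 1 lower (Ahr) of 9, with a median of 1.57 against -0.00783 over all genes tested. Cxcr6 stood at 32.4, 20.1 and 34.9 CPM in NK cells (3.15, SE 0.216, edgeR adjusted p = 5.67e-06) and Cd69 at 132, 82.6 and 125 CPM (1.96, SE 0.172, edgeR adjusted p = 3.40e-05). Pdcd1, Ctla4, Tox and Cd160 were higher and Cd244 lower of 6 inhibitory receptors, with Pdcd1 at 7.47, 6.04 and 0 CPM in NK cells. T cell receptor signalling genes held 10 higher of 14, interferon-induced genes 7 of 13 and MHC class I genes 5 of 8, with none lower in these 3 lists. Cd5, a regulator of T cell receptor signalling at 117, 139 and 106 CPM in CD8 cells, had no UMI in NK cells and was at least 57.9-fold higher against the limit of 3 UMIs over the group. Of the naive list, 7 genes were higher and 4 lower of 14. Effector transcription factors held 6 lower of 8, memory genes 3 higher and 2 lower of 8, early response genes 4 higher and 1 lower of 15, helper genes 2 higher and 1 lower of 7, and proliferation genes 1 lower of 10. Of the markers of other cells, the 4 NK genes tested were lower, 1 macrophage gene (Ctss) was higher, and 1 B cell and 1 endothelial gene were lower.

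The genotypes were compared within CD8 cells, a test with 1 residual degree of freedom that assumes that the WT library varies like the Aoah-/- libraries. Of 10872 genes, 89 (0.819%) were higher and 78 (0.717%) lower in Aoah-/- mice (edgeR quasi-likelihood test, Benjamini-Hochberg at 0.05), and DESeq2 called 7 higher and 8 lower. With relative log expression (RLE) size factors the split was 43 higher and 63 lower, with at most 20% mitochondrial UMIs it was 5 and 4, and with at least 2 CD8 UMIs it was 2 and 2. The cytotoxic granule list had no called gene of 10 (median 0.04 against 0.00747 over all genes tested), the cytokine list none of 8 (median -0.05), the residence list none of 10 (median -0.14) and the inhibitory receptor list none of 10 (median -0.05). T cell receptor signalling (14 tested), interferon-induced (13) and MHC class I genes (8) had none either. NK-type receptors held 4 higher of 9 and none lower, with a median of 0.55, against a background of 0.819%.

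Klre1 stood at 180 CPM (Poisson interval 165 to 196) in Aoah-/- 2, 170 CPM (157 to 183) in Aoah-/- 3 and 58.4 CPM (46.5 to 72.5) in WT, a log2 difference of 1.53 (SE 0.169, edgeR adjusted p = 6.63e-09). The intervals of both Aoah-/- libraries lay above that of the WT library, and the log2 ratios of the single mice to WT were 1.62 and 1.54. Klre1 was detected in 20.4% (17.9 to 23.2), 18.8% (16.5 to 21.3) and 8.42% (5.83 to 11.7) of the thinned CD8 cells, against at most 0.547% of B or ascending limb cells. It kept its call in each alternative but 1, the gate with at least 2 CD8 UMIs (adjusted p = 0.0653), and its log2 difference ran from 1.14 to 1.71. In NK cells of the same libraries Klre1 did not follow this order, at 607, 640 and 679 CPM.

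Klrc1, at 140, 148 and 79.1 CPM (0.82, SE 0.160, edgeR adjusted p = 0.000973), Klrc2, at 59.5, 84.1 and 37.0 CPM (0.91, SE 0.218, edgeR adjusted p = 0.0116), and Klrk1, at 301, 239 and 179 CPM (0.55, SE 0.148, edgeR adjusted p = 0.0387), were also higher in both Aoah-/- mice than in WT. Klrd1, at 284, 258 and 191 CPM, had the same order and did not pass (0.46, edgeR adjusted p = 0.0978). Each of the 3 calls was lost with at most 20% mitochondrial UMIs, with at least 2 CD8 UMIs and with DESeq2. In these settings the difference was 0.85, 0.96 and 0.82 for Klrc1, 0.90, 0.84 and 0.90 for Klrc2, and 0.50, 0.57 and 0.55 for Klrk1. The calls of Klrc2 and Klrk1 were lost in 6 of 8 alternatives. Of the 5 NK list genes, Ncr1, Klra4 and Klra8 had no UMI in the CD8 cells of WT and at most 7 UMIs each in those of either Aoah-/- mouse. Klra7, at 5.78, 15.9 and 13.5 CPM, and Klra9, at 12.9, 28.8 and 20.7 CPM, were read in all 3 libraries and highest in Aoah-/- 3. Their part in the receptor differences was not tested.

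**Figure D5:**
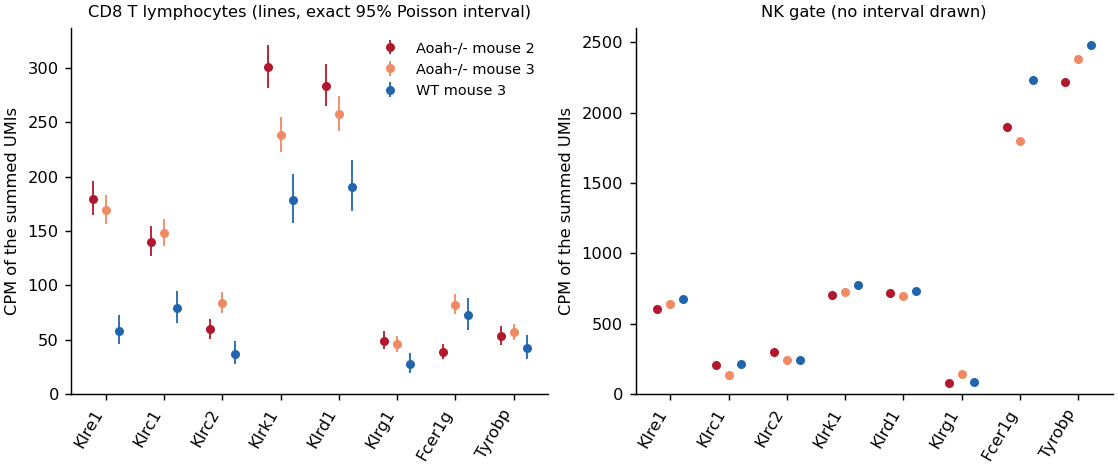
CPM of 8 NK-type receptor genes in the CD8 cells (left, lines are exact 95% Poisson intervals) and in the NK gate (right, no interval drawn) of each library. Klre1, Klrc1, Klrc2, Klrk1 and Klrd1 lie higher in both Aoah-/- mice than in WT among CD8 cells (Klre1 180 and 170 against 58.4 CPM), and Klre1 does not in the NK gate (607 and 640 against 679 CPM).

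CD8 cells with a Klre1 UMI, 188, 201 and 32 after thinning, were set beside those without as a description. Gzma stood at 1925, 2333 and 1383 CPM in cells with Klre1 against 476, 590 and 540 CPM in cells without, Klrk1 at 859, 643 and 804 against 223, 172 and 144 CPM, and Ccl5 at 18057, 15452 and 17419 against 12604, 9795 and 10164 CPM. Il7r stood lower, at 111, 116 and 93.5 against 196, 200.3 and 253 CPM. Dapl1 had no UMI in cells with Klre1. For these genes the direction was the same in each library. Of the 10 granule genes, 5 were higher in cells with Klre1 in all 3 libraries (Gzma, Gzmk, Nkg7, Ctsw and Srgn) and 5 were mixed, among them Gzmb, at 277, 509 and 150 against 158, 327 and 285 CPM. How many of all genes kept their direction in this split was not counted, so these numbers describe the list only. Pdcd1 stood at 102, 17.9 and 168 against 167, 117 and 127 CPM, lower in the Aoah-/- mice and higher in WT.

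Eomes, a factor of effector and memory CD8 cells, stood at 170, 122 and 86.9 CPM (0.70, SE 0.176, edgeR adjusted p = 0.0205), and Ccr2, the receptor for monocyte chemoattractants, at 130, 154 and 84.8 CPM (0.70, SE 0.161, edgeR adjusted p = 0.00773), both higher in Aoah-/- mice. Lower in Aoah-/- mice were Icos, at 115, 123 and 203 CPM (-0.82, SE 0.139, edgeR adjusted p = 0.000105), Rora, at 107, 117 and 172 CPM, and Dapl1, at 30.3, 35.7 and 56.3 CPM, as well as Egr1. Stmn1, a tubulin-binding protein of dividing cells, stood at 62.6, 119 and 180 CPM (-1.02, SE 0.181, edgeR adjusted p = 0.000217), and the other 9 proliferation genes were not called, although all 10 had a negative difference (median -0.49 against 0.00747 over all genes tested). Mki67 stood at 43.5, 81.2 and 94.7 CPM. With no UMI of other lineages the difference was -0.34 for Stmn1, 0.45 for Eomes and 0.47 for Ccr2, and that of Egr1 turned to 0.068. The log2 ratios of Stmn1 to WT were -1.52 in Aoah-/- 2 and -0.59 in Aoah-/- 3. Each of these 7 calls was lost with at most 20% mitochondrial UMIs, with at least 2 CD8 UMIs and with DESeq2. All 7 differences kept their direction in these settings. That of Eomes was 0.69, 0.82 and 0.70, that of Stmn1 -1.04, -0.99 and -1.04, and that of Dapl1 -0.83, -0.57 and -0.82. Gzmk, at 237, 223 and 165 CPM, did not pass (0.44, edgeR adjusted p = 0.138), nor did Tcf7, at 65.0, 43.1 and 78.4 CPM, or Itgae (-0.82, edgeR adjusted p = 0.167).

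Genes of other kidney cells differed between the libraries in the same contrast. The 4 MHC class II genes summed to 489, 716 and 178 CPM, led by Cd74, and all 4 were higher in Aoah-/- mice. Cd74 itself stood at 178, 255 and 69.8 CPM in CD8 cells and between 6262 and 9544 CPM in B cells. All 4 calls were lost with at least 2 CD8 UMIs (adjusted p from 0.295 to 0.780), those of Cd74, H2-Aa and H2-Eb1 with at most 20% mitochondrial UMIs (0.188 to 0.509), and those of H2-Aa and H2-Eb1 with DESeq2. With at least 2 CD8 UMIs the log2 differences were 1.70 for H2-Ab1, 1.81 for H2-Eb1, 1.63 for Cd74 and 1.73 for H2-Aa. The main values were 1.97, 1.85, 1.58 and 1.56 in that order. The Cd74 difference of 1.58 was 0.94 without the 5% of cells with the most UMIs, and 1 cell held 221 of its UMIs. Proximal tubule genes, led by Kap, summed to 3207, 3035 and 2353 CPM with 5 higher of 8, ascending limb genes, led by Umod, to 186, 241 and 96.2 CPM with 2 higher of 4, and macrophage genes, led by Apoe, to 248, 281 and 137 CPM with 1 higher of 7. In the opposite direction, erythroid genes, led by Hbb-bs, summed to 3207, 4813 and 6504 CPM with 3 lower of 6, and fibroblast genes, led by Dcn, to 1.70, 2.91 and 251 CPM with 4 lower of 4. The Dcn UMIs lay in 13 cells, 1 of which held 103, and without the 5% of cells with the most UMIs the 269 of WT became 8. Endothelial genes (73.5, 136 and 104 CPM) and NK genes had no call, granulocyte genes (72.5, 140 and 76.9 CPM) 1 higher, S100a8, and B cell genes (147, 23.3 and 37.8 CPM) 1 higher, Ly6d, and 1 lower, Ebf1. Ly6d alone made up 132, 8.20 and 2.14 CPM of the B cell sums. The part of these genes in the other calls was not tested. Klre1 stood between 0.473 and 2.03 CPM in ascending limb cells and between 1.05 and 2.96 CPM in B cells, far under its level in CD8 cells of each library.

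The 10 genes with the largest called differences at 100 CPM or more included several of these. Higher were Gstm1, Gm8730, H2-Ab1, H2-Eb1, Cxcl2, Klk1, Cd74, H2-Aa, Klre1 and Spp1, and lower were Dcn, C3, Gsn, Slpi, Erdr1, Hist1h1b, Klf4, Hist1h1e, Stmn1 and Hbb-bs. Several of these differences did not hold in other sets of cells. With no UMI of other lineages those of Gstm1 (-0.31), Slpi (1.28) and Hist1h1e (0.22) turned, Hist1h1b became -0.056 and Hbb-bs -0.17. Without the 5% of cells with the most UMIs those of C3 (0.30) and Slpi (1.61) turned, and Gstm1 became 0.70, Gsn -0.76, Klf4 -0.099 and Hbb-bs -0.018. In that setting others grew, with Hist1h1b going from -1.46 to -2.83 and Cxcl2 from 1.77 to 4.41. For Cxcl2, 1 cell held 323 of the 474 UMIs of Aoah-/- 2. The log2 ratios of Cxcl2 to WT were 2.47 in Aoah-/- 2 and 0.70 in Aoah-/- 3. The call of Cxcl2 was lost with RLE size factors, with DESeq2, with at most 20% mitochondrial UMIs and with at least 2 CD8 UMIs. Gstm1 stood at 469, 28.0 and 27.8 CPM, and 1 cell held 835 of the 1379 UMIs of Aoah-/- 2. Its log2 ratios to WT were 4.08 in Aoah-/- 2 and 0.013 in Aoah-/- 3. Gm8730, a processed pseudogene on chr8:102864845-102865798 whose reads may belong to a parent gene, stood at 236, 203 and 41.3 CPM in CD8 cells, at 243, 222 and 16.6 CPM in CD4 cells and at 296, 145 and 28.6 CPM in B cells. Erdr1 stood at 46.3, 24.3 and 129 CPM in CD8 cells and at 51.6, 32.5 and 141 CPM in CD4 cells, again in the same order. Of the 29 called genes followed through 8 alternatives, Gm8730 kept its call in all, and Dcn kept it in the 7 in which it was tested, having too few UMIs to be tested without the 5% of cells with the most UMIs.

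Whether the genotype difference of CD8 cells differed from that of CD4 cells was tested as an interaction. Of 9434 genes, 25 (0.265%) were called by edgeR and 3 by DESeq2. The interaction value is the signed Aoah-/- to WT log2 difference in CD8 cells minus that in CD4 cells. In edgeR it was positive for 20 of the called genes (0.212%) and negative for 5 (0.053%). Gzma was the called gene of the cytotoxic list. It stood at 732, 867 and 648 CPM in CD8 cells and at 29.9, 24.1 and 78.3 CPM in CD4 cells, where WT was high (1.81, SE 0.273, edgeR adjusted p = 0.0116). The call was lost with DESeq2 (adjusted p = 0.272), with no UMI of other lineages allowed and without the filter on low counts. Klre1 (3.74, edgeR adjusted p = 0.85), Klrc1 (4.26, 0.121) and Itgae (-2.48, 0.19) did not pass, so that no difference between the cell types was called for them. CD4 cells had few UMIs of these genes, and whether this decided the result was not tested.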

How the data were processed

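Kidney cells of 2 Aoah-/- mice and 1 WT mouse, all given FA, were profiled with the 10x Genomics droplet method. The authors deposited 1 matrix of UMI counts per library (27998 genes), not normalized. The submitters' processing notes name Cell Ranger 3.1.0, STAR, Seurat 4.2.0 and mm10, and the header of the deposited matrices names Cell Ranger 6.1.2. The barcodes, genes and counts were read as deposited, with no further alignment. No doublet caller was run.

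Cells were gated on their own counts as given with the results, and the members and gene lists were chosen with earlier results of these data known. The CD4 gate required Cd3 and Cd4 with no UMI of Cd8a, Cd8b1 or Foxp3, the NK gate required Ncr1 or Klrb1c with no UMI of Cd3, Cd4, Cd8b1 or Foxp3, the B cell gate required Cd79a and Ms4a1, and the ascending limb gate Umod and Slc12a1, the last 2 without Cd3. UMIs were summed per library and gate, and CPM are counts per 1000000 UMIs of that sum. Sums were tested with edgeR 4.0.16 (TMM, filterByExpr, glmQLFit and glmQLFTest) in R 4.3.3, with Benjamini-Hochberg adjustment over all genes tested and a threshold of 0.05. The 13 gate genes (15 for NK cells) were left out of the tests. CD8 was compared with CD4 and NK cells with the library as a block, since both sums came from the same mouse. Deviations of the paired sums correlated at 0.280, 0.183 and 0.294 for CD4 (2650 genes) and at 0.493, -0.00784 and 0.470 for NK cells (2666 genes). SE is the absolute log2 difference divided by the square root of F. The fits were also run on simulated data, the outcome of which is not reported here.

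Besides the members of the 24 lists (203 genes), the genes named were, per comparison and direction, the 10 with the largest absolute log2 difference among those with an adjusted p of at most 0.05, the same sign in every library and at least 100 CPM in the higher group. Some genes first planned for the lists and the naive class are not reported here. Shares carry exact Clopper-Pearson intervals and CPM exact Poisson intervals, both at 95%, which cover counting error only. Alternatives were other mitochondrial, gene, CD8 and other-lineage limits, removal of the 5% of cells with the most UMIs, RLE size factors, no filter on low counts, DESeq2 1.42.0, no block, other thinning depths and leaving out each library. Values were computed with Python 3.11.15, numpy 2.4.6, scipy 1.17.1 and pandas 2.3.3.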

Additional observations from a re-analysis of the deposited data

Results flagged for a closer look

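The genotype difference of CD8 cells differed from that of CD4 cells for 25 genes by the interaction test of edgeR (quasi-likelihood, Benjamini-Hochberg), a test with 1 residual degree of freedom. The values below are differences of log2 differences, CD8 minus CD4, and no explanation of them was tested. Among the named genes, the positive values were 9.01 for Ccl1, 5.51 for Clu, 3.16 for Spp1, 2.60 for Wfdc2 and 2.44 for Slpi. Further positive values were 2.35 for Ier3, 2.06 for Tmem176b, 1.81 for Gzma, 1.59 for Cd63 and 1.41 for Igfbp7. The negative values were -3.15 for Gsn, -2.96 for Hbb-bs and -1.61 for Hist1h1b. The sign does not tell in which cell type the genotype difference was the larger. Slpi, with a positive value, stood at 44.9, 9.26 and 124 CPM in CD8 cells and at 13.6, 1.05 and 181 CPM in CD4 cells. Several of these values changed with the cells that were kept. Without the 5% of cells with the most UMIs the value became 5.54 for Ccl1, 0.059 for Spp1, 0.85 for Slpi and 0.48 for Cd63. In the same setting it was -0.043 for Gsn and -4.92 for Hist1h1b, and turned to -1.73 for Wfdc2 and -0.48 for Igfbp7. With no UMI of other lineages it became 0.66 for Clu, 0.043 for Slpi, 0.069 for Ier3, 0.68 for Cd63 and -7.18 for Hist1h1b. There Hbb-bs became -1.69, and Wfdc2 and Igfbp7 turned to -3.14 and -1.26.

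Ccl1, a chemokine of activated T cells, stood at 80.0, 29.9 and 1.42 CPM in the CD8 cells of Aoah-/- 2, Aoah-/- 3 and WT and at 9.50, 29.3 and 333 CPM in their CD4 cells, and its CD8 UMIs lay in 14 cells, 1 of which held 97. Clu, an injury gene of the tubule, stood at 160, 133 and 54.1 CPM in CD8 cells and at 42.1, 43.0 and 751 CPM in CD4 cells. Spp1, osteopontin, stood at 435, 411 and 142 CPM in CD8 cells and at 326, 792 and 1611 CPM in CD4 cells. For Ccl1, Clu and Spp1 the WT mouse was lowest among the CD8 sums and highest among the CD4 sums. One CD8 cell held 288 UMIs of Clu and 1 held 480 of Spp1. The interaction of Clu turned to -0.92 without the 5% of cells with the most UMIs, and that of Spp1 to -1.84 with no UMI of other lineages. Hbb-bs, a haemoglobin chain, stood at 1652, 2408 and 3592 CPM in CD8 cells and at 4625, 1939 and 718 CPM in CD4 cells, the opposite order. Its CD8 sums were 4856, 9105 and 5043 UMIs, and 1 CD8 cell held 2369. Without the 5% of cells with the most UMIs its genotype difference in CD8 cells was -0.018.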

How the results depend on the processing

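The difference between the Aoah-/- mean and the WT mouse in the CD8 share of kept cells, 2.82 percentage points, was 4.19 with at most 20% mitochondrial UMIs, 0.80 with no UMI of other lineages, 2.23 with at least 2 CD8 UMIs and 1.66 with a UMI floor of 3000, an alternative chosen after seeing the data, and 2.56 to 3.09 without either Aoah-/- library. The difference in the share of T cells, 20.04, ran from 16.6 to 23.5 without either. For cells with a naive gene alone, -0.075 became -0.87 with at most 20% mitochondrial UMIs, -0.37 with no UMI of other lineages, -0.87 with at least 2 CD8 UMIs, -0.45 without the 5% of cells with the most UMIs, 0.28 thinned to 1000 UMIs, -0.40 not thinned and -0.68 as the median of 20 further draws. Without either library it was -0.16 to 0.0057. The effector class, 0.79, became -0.53 and the class with both, -0.26, became 1.02 with at most 20% mitochondrial UMIs, the class with both became -1.79 thinned to 1000 UMIs, and without either library they ran from -0.14 to 1.71 and from -1.06 to 0.55. The residence share, 0.90, ran from -4.36 to 6.17. Against CD4 cells, 205 genes higher and 264 lower became 96 and 140 with no UMI of other lineages and 110 and 131 with DESeq2, 356 were higher without the filter on low counts, and 419 were lower without the 5% of cells with the most UMIs. Leaving out 1 library gave 78 to 158 higher and 101 to 200 lower, least without Aoah-/- 3. Against NK cells, 502 and 477 became 256 and 243 with DESeq2, 288 were lower with no UMI of other lineages, and leaving out 1 library gave 283 to 509 and 311 to 497, least without Aoah-/- 3. With no replicate block the counts were 179 and 242 against CD4 cells and 454 and 438 against NK cells. For the genotypes, 89 higher and 78 lower became 5 and 4 with at most 20% mitochondrial UMIs, 45 and 35 with no UMI of other lineages, 2 and 2 with at least 2 CD8 UMIs, 28 and 18 without the 5% of cells with the most UMIs, 135 and 126 without the filter and 7 and 8 with DESeq2, and 43 were higher with RLE size factors. The interaction count of 25 became 43 with at most 20% mitochondrial UMIs, 7 with no UMI of other lineages and 3 with DESeq2. It was 0 in edgeR without the filter, where 456 of 16514 genes had an unadjusted p under 0.05. No paired analysis was possible because the genotypes share only replicate number 3, and with a library left out neither genotype test had residual degrees of freedom. Directions reversed with no UMI of other lineages for Gstm1 (-0.31), Slpi (1.28), Hist1h1e (0.22) and Egr1 (0.068) between genotypes and for Spp1 (-1.84), Wfdc2 (-3.14) and Igfbp7 (-1.26) in the interaction, and without the 5% of cells with the most UMIs for C3 (0.30) and Slpi (1.61) between genotypes and for Clu (-0.92), Wfdc2 (-1.73) and Igfbp7 (-0.48) in the interaction. The cause was not tested. Of the called genes that are named or listed, 39 of 74 against CD4 cells, 61 of 96 against NK cells, 1 of 29 between genotypes and 0 of 13 in the interaction kept their calls in every alternative run, and a further 3, 2, 1 and 0 kept them in those in which they passed the filter on low counts.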
